A study of Mus musculus with 9 samples.

Results

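The Dlk1-Dio3 region of mouse chromosome 12 carries a large imprinted cluster of miRNA genes, and 38 of its precursors, listed by name, were followed in small RNA libraries of mouse atrial appendages. A precursor was found by its miRBase name in the miRNA annotations of each library, its reads with and without a genome match were summed, and a library without it counted as 0. Of the 38 precursors, 34 had at least 1 read in the 9 libraries, in which 661 miRNA precursors had reads in all. Enough reads for a test were found for 11 of them, among 209 miRNAs and 520 small RNA features of all kinds.

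The libraries came from C57BL/6 mice in 3 groups of 3. Young mice were 5 months old and old mice 18 months old, both without curcumin. The third group, also 18 months old, had taken curcumin, a polyphenol of turmeric, in non-fat skim milk at 100 mg/kg each day from the age of 12 months. The labels give no sex, do not say whether mice without curcumin drank the milk, and do not tie a library to 1 animal, so p-values measure the spread between these libraries. All RNA was prepared for PANDORA-seq, in which AlkB strips methyl groups that block reverse transcription and T4 polynucleotide kinase repairs RNA ends before ligation.

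Imprinted genes are read from the allele of only 1 parent. In this region the protein-coding genes Dlk1, Rtl1 and Dio3 are read from the paternal allele, and the non-coding RNAs Meg3, Rian and Mirg and the miRNAs from the maternal allele. The miRNAs are cut from long transcripts and are best known from the embryo, the placenta and the brain. Those opposite Rtl1 pair perfectly with its transcript and can direct its cleavage.

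Clean reads ranged from 12899427 to 19707803 per library, and miRNAs made up 1.23% to 4.66% of them. The tissue label was checked against markers. The 7 heart muscle precursors summed to between 5179 and 17618 CPM (counts per 1000000 reads of all features after TMM scaling, which aligns libraries on the bulk of their features), while the liver marker miR-122 stayed between 0.965 and 4.55 CPM. Nearly all of that sum came from miR-1a-1 and miR-1a-2, with means of 5807 CPM each, ahead of miR-133a-1 and miR-133a-2 at 186 each. On the same list miR-208a averaged 22.1 CPM, but miR-499 had only 17 reads in 4 libraries and miR-208b 3 reads in 2. Young replicate 1 stood apart, with 281 CPM of 4 erythroid precursors and 350 CPM of the 4 leukocyte precursors found, where the other 8 libraries reached at most 99.4 and 126 CPM. This came from miR-144 (76.7 CPM), miR-451a (167), miR-142a (263) and miR-223 (81.8), the highest of their 9 values each. The other erythroid and leukocyte precursors were not raised there, with 18.9 CPM of miR-486a against 39.0 in young replicate 3, 18.5 against 36.8 of miR-486b, 3.86 against 6.59 of miR-150, and 1.45 CPM of miR-155, the lowest of all 9. Ratios within replicate numbers are given beside the totals. Libraries with the same number deviated from their group means together between young and old and between young and curcumin, though not throughout between old and curcumin. Some libraries numbered 2 or 3 deviated more closely with a library of the other number, so the pairing by number is uncertain.

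Both mature strands of the 11 tested precursors are shown here because their seeds, bases 2 to 8 in capitals, set which messages a miRNA can pair with. They come from RefSeq on GRCm38.p6, which held all 38 precursors with 72 mature strands, and are written 5′ to 3′. The deposited values join both strands of a precursor, so a level given for miR-127 holds the reads of both.
miR-337-5p: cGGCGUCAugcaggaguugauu
miR-337-3p: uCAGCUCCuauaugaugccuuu
miR-127-5p: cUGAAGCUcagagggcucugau
miR-127-3p: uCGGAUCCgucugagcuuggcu
miR-434-5p: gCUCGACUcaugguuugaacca
miR-434-3p: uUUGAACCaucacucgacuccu
miR-136-5p: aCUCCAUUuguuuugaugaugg
miR-136-3p: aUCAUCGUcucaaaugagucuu
miR-379-5p: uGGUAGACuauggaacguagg
miR-379-3p: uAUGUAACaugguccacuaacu
miR-411-5p: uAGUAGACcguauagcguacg
miR-411-3p: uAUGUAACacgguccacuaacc
miR-299a-5p: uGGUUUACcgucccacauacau
miR-299a-3p: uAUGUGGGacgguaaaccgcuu
miR-382-5p: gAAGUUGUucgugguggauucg
miR-382-3p: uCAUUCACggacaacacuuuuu
miR-134-5p: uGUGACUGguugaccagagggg
miR-134-3p: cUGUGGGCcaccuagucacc
miR-541-5p: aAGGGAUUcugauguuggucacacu
miR-541-3p: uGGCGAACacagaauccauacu
miR-409-5p: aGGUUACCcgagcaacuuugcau
miR-409-3p: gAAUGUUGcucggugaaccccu

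The 72 strands carried 69 different seeds. Among the tested members only miR-379-3p and miR-411-3p shared a seed, and these neighbours were identical at 20 of 22 positions. Their 5p strands matched at 14 of 21 positions and had different seeds. The other shared seeds were those of miR-376b-5p with miR-376c-5p and of miR-494-5p with miR-410-5p, all from precursors too low to test.

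By the GENCODE annotation of mm10, the 38 precursors lay between Dlk1 and Dio3 on the plus strand and spanned 180 kb. Reads were uneven along this stretch, as the plot of read level along the locus shows. The 5 precursors opposite the exon of Rtl1 held 1871 of the 5107.5 cluster reads of all libraries, and the 16 between Rian and Mirg held 1608.5. Within Mirg, 7 precursors that overlap an exon held 606 reads and 3 in introns held 850. The 4 between Meg3 and Rtl1 held 128, the 2 in introns of Rian held 42, and miR-770 at an exon of Meg3 held 2.

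**Figure D1:**
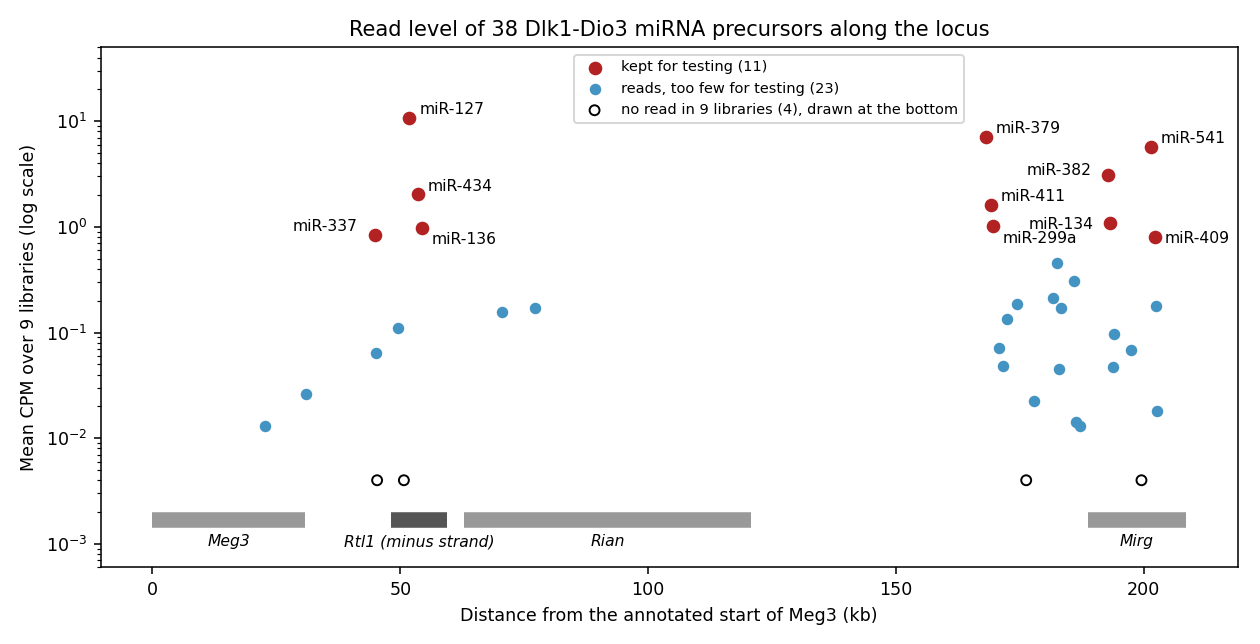
Mean level of each of the 38 precursors over the 9 libraries (CPM after TMM scaling, log axis) against the distance of its start from the annotated start of Meg3 in kb, with the host genes as grey bars. The 11 tested precursors, in red, lie in 2 stretches, 4 from miR-337 to miR-136 around Rtl1 and 7 from miR-379 to miR-409 at and before Mirg.

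The members differed widely in level, and a few carried most reads. Ranked by mean CPM among the 661 precursors, miR-127 stood 88th with 10.7 CPM, miR-379 107th with 7.10, miR-541 117th with 5.67 and miR-382 141st with 3.11. The 7 other tested members stood between place 161 and place 200, from 2.03 down to 0.799 CPM. No length correction was applied, since the mature strands measure 20 to 25 bases, but strands can differ in how well they ligate. miR-127, miR-379, miR-541 and miR-382 together held 65.5% to 76.9% of the cluster reads of a library, and the 11 tested members 90.7% to 96.3%. A read in all 9 libraries was found for 10 members and for 235 of the 661 precursors with any read, and a read in at least 3 for 29 members and 437 precursors. As only 34 members had any read, shares of the 38 are not set beside those of the 661.

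The cluster as a whole took few reads. Its 38 members summed to 1493, 290 and 417.5 reads in young replicates 1 to 3, to 692.5, 272 and 288 in the old libraries, and to 752, 474.5 and 428 in the curcumin libraries. In RPM (reads per 1000000 clean reads) this was 75.8 (95% Wilson interval 72.0 to 79.7), 18.5 (16.5 to 20.8) and 32.4 (29.4 to 35.7) in the young libraries, 42.9 (39.8 to 46.2), 15.7 (13.9 to 17.7) and 17.2 (15.3 to 19.3) in the old ones, and 42.9 (40.0 to 46.1), 27.5 (25.1 to 30.0) and 30.0 (27.3 to 33.0) after curcumin. The intervals hold counting error alone and treat each read as its own molecule, so they are too narrow where several reads stem from 1 molecule. In every group replicate 1 was the highest, and the 3 groups overlapped. The means were 42.2 ± 29.9, 25.3 ± 15.3 and 33.5 ± 8.31 (SD, n = 3), so that old stood 16.9 RPM below young. Without young replicate 1 that difference was 0.166 RPM, still with old lower, and curcumin-treated mice then stood 8.01 above young mice, where the difference with all libraries was −8.76.

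Set against all miRNA reads, the libraries ordered differently. Per 10000 miRNA reads the cluster held 16.3, 13.8 and 17.2 in the young libraries, 12.9, 12.8 and 7.27 in the old ones, and 13.4, 6.50 and 8.50 after curcumin. Every young library lay above every old and every curcumin library, while old and curcumin overlapped. At the edge the gap was within counting error, since the 95% Wilson interval of young replicate 2, 12.3 to 15.5, held the values of curcumin replicate 1 and old replicates 1 and 2. The separation also needed miR-541. Without this member the totals were 13.6, 10.4 and 13.5 in young, 11.6, 9.86 and 5.86 in old, and 12.2, 6.06 and 7.51 in curcumin libraries. Young replicate 2 then lay below old replicate 1 and curcumin replicate 1. The means of the whole cluster were 15.7 ± 1.75, 11.0 ± 3.23 and 9.47 ± 3.55 (SD, n = 3). No p-value is given for these sums, since the list of members was drawn up with results of these libraries known. Within replicate numbers 1, 2 and 3 the ratio of old to young was 0.796, 0.926 and 0.423, that of curcumin to young 0.824, 0.471 and 0.495, and that of curcumin to old 1.04, 0.509 and 1.17. The share of miRNAs in clean reads, the denominator that separates both scales, was 4.66%, 1.34% and 1.88% in the young libraries, 3.32%, 1.23% and 2.37% in the old ones and 3.21%, 4.22% and 3.53% after curcumin. Its part in the order of the groups was not tested. In tissue RNA, fewer cells of a type and less RNA per cell cannot be told apart.

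**Figure D2:**
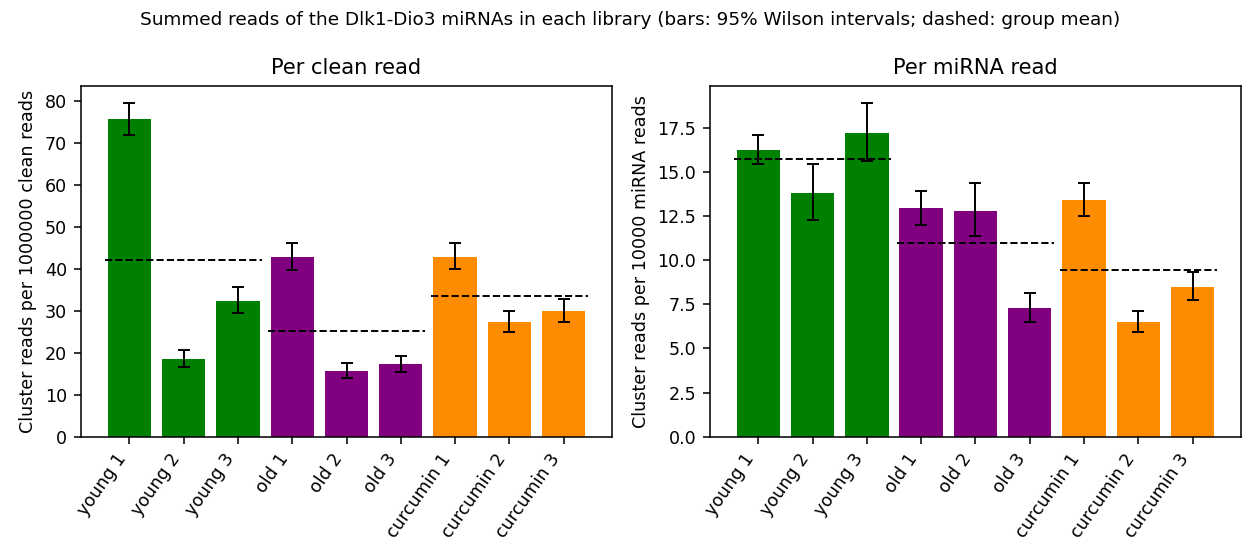
Summed reads of the 38 precursors in each library, as reads per 1000000 clean reads on the left and per 10000 miRNA reads on the right, with 95% Wilson intervals and group means as dashed lines. On the left young replicate 1 stands at 75.8 and the groups overlap, and on the right the 3 young libraries, 13.8 to 17.2, lie above the 6 others, 6.50 to 13.4.

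Opposite Rtl1, miR-127 (mmu-mir-127 in the files), the most read member, pairs perfectly with the Rtl1 transcript (precursor at chromosome 12, 109592846 to 109592915). It had 343, 92 and 129 reads in young, 197, 74 and 80 in old and at least 144 in each of the curcumin libraries. That is 16.5, 8.48 and 13.1 CPM in young, 14.0, 5.86 and 5.75 in old and 12.9, 8.07 and 11.8 in curcumin libraries. The groups overlapped, with 2 of the 3 old libraries below all others. miR-434 (mmu-mir-434), another miRNA opposite Rtl1, had 97, 11 and 9 reads in young, 48, 11 and 9 in old and 47, 31 and 27 in curcumin libraries. Its young and old libraries numbered 2 and 3 lay between 0.647 and 1.01 CPM and the 3 curcumin libraries between 1.74 and 2.78 CPM, but young and old replicate 1, at 4.68 and 3.42 CPM, lay above these. miR-136 (mmu-mir-136), also opposite Rtl1, had 51, 0 and 9 reads in young, 23, 0 and 9 in old and 36, 6 and 8 in curcumin libraries. It was absent from replicate 2 of the young and old groups, where 0 reads allow up to 0.192 and 0.173 RPM, and the groups overlapped. The 3 tested members and miR-431 made up 33.4%, 35.5% and 35.4% of the cluster reads in young, 39.0%, 31.3% and 34.0% in old and 40.8%, 38.1% and 42.1% in curcumin libraries.

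The neighbours miR-379, miR-411 and miR-299a open the stretch between Rian and Mirg, part of a cluster that the factor Mef2 is known to induce in neurons. miR-379 (mmu-mir-379, chromosome 12, 109709060 to 109709125) had 319, 34 and 69 reads in young, 135, 40 and 57 in old and 179, 88 and 74 in curcumin libraries. In CPM it stood at 15.4, 3.13 and 7.00, then 9.61, 3.17 and 4.10, then 10.6, 4.93 and 6.01, so that replicate 1 was the highest in every group and the groups overlapped. miR-411 (mmu-mir-411), with the same 3p seed as miR-379, had 61, 16 and 13 reads in young, 24, 11 and 10 in old and 33, 38 and 18 in curcumin libraries, again with overlap in CPM. Reads of miR-411 per read of miR-379 ranged from 0.188 to 0.471 in young, 0.175 to 0.275 in old and 0.184 to 0.432 in curcumin libraries, with no group apart.

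miR-299a (mmu-mir-299a) had 46, 9 and 15.5 reads in young, 22.5, 5 and 7 in old and 10, 13.5 and 9 in curcumin libraries. At 2.22, 0.829 and 1.57 CPM every young library lay above every curcumin library, at 0.591, 0.757 and 0.730, while the old libraries, at 1.60, 0.396 and 0.503, overlapped both. The edge between young and curcumin, 0.829 CPM from 9 reads against 0.757 CPM from 13.5 reads, was too close to tell apart. Fractions of a read arose where the precursor shared reads with miR-299b, annotated on the opposite strand of the same site, whose own sum was 3.5 reads. The strand setting of the counting is not known here, so reads of a precursor and of one antisense to it cannot be told apart. miR-337 (mmu-mir-337), between Meg3 and Rtl1, had 42, 1 and 16 reads in young, 12, 12 and 3 in old and 8, 17 and 5 in curcumin libraries, and its values overlapped in all groups.

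Within Mirg, miR-541 (mmu-mir-541, chromosome 12, 109742409 to 109742498, in an intron) has been studied in neurite growth and in enlargement of heart muscle cells. It had 240, 72 and 90 reads in young, 70, 62 and 56 in old and 66, 32 and 50 in curcumin libraries. Its levels were 11.6, 6.63 and 9.12 CPM in young, 4.98, 4.91 and 4.02 in old and 3.90, 1.79 and 4.06 in curcumin libraries. The lowest young library lay above the highest of the 6 libraries of old mice, and curcumin replicate 3 just overlapped the old libraries. miR-382 (mmu-mir-382) had 111, 25 and 30 reads in young, 57, 30 and 21 in old and 68, 47 and 33 in curcumin libraries, with overlap throughout. miR-134 (mmu-mir-134), known for restraining the growth of dendritic spines, was the only tested member with a mean higher in old than in young mice. It had 24, 12 and 5 reads in young, 24, 12 and 14 in old and 21, 8 and 20 in curcumin libraries, and its values overlapped. miR-409 (mmu-mir-409) had 20, 6 and 12 reads in young, 18, 5 and 6 in old and 18, 7 and 11 in curcumin libraries, and its values overlapped too.

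**Figure D3:**
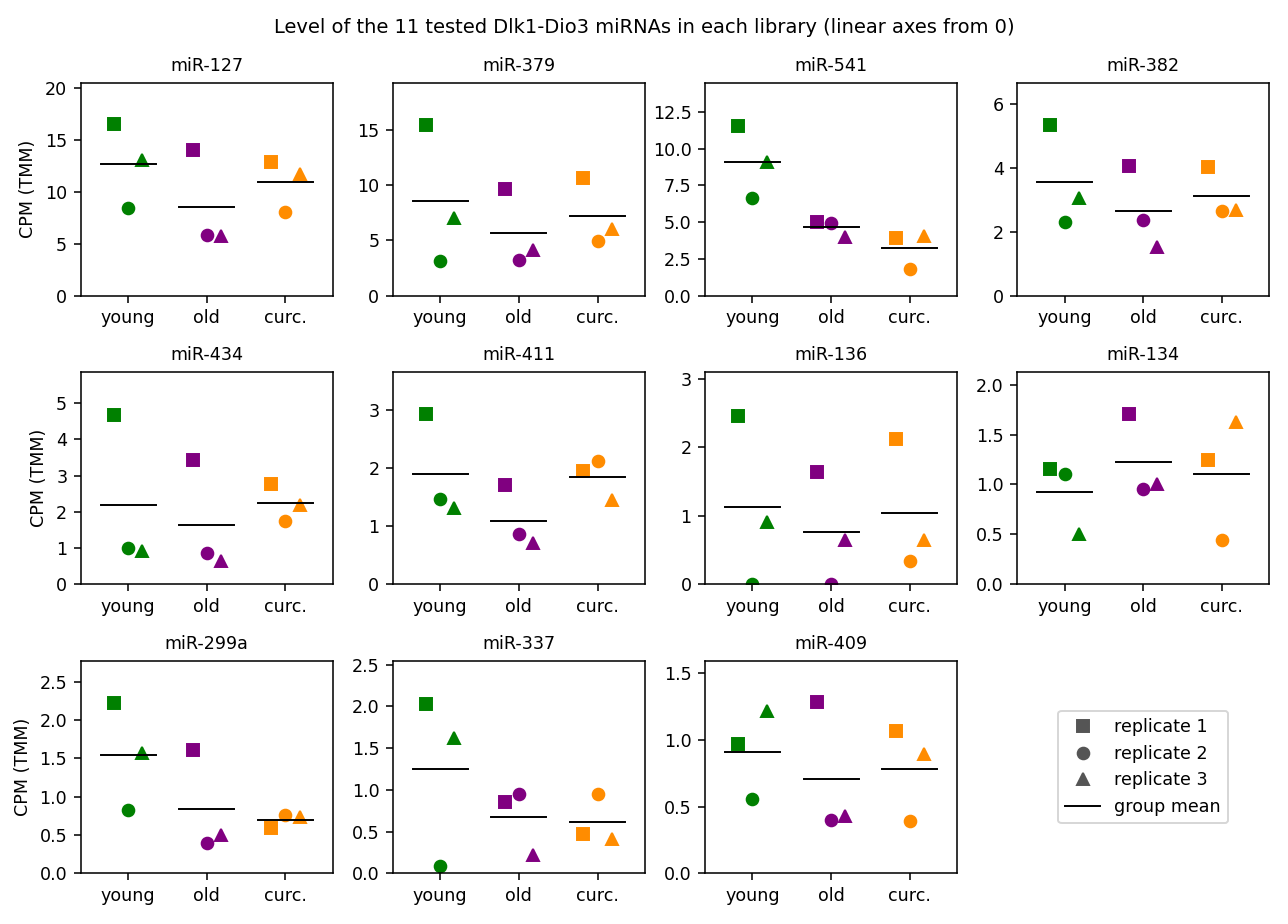
Levels of the 11 tested precursors in each library (CPM after TMM scaling, linear axes from 0), with replicates 1, 2 and 3 as squares, circles and triangles and group means as lines. For miR-541 the 3 young libraries, 6.63 to 11.6 CPM, lie above the 6 others, 1.79 to 4.98 CPM, while for miR-127, miR-379 and miR-382 the groups overlap.

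Old mice were set against young mice to ask about age. miR-541 stood at 4.64 ± 0.536 CPM in old and 9.11 ± 2.47 CPM in young mice (SD, n = 3), a log2 change of −0.97 (SE 0.43). The edgeR quasi-likelihood test gave an adjusted p of 0.999 (Benjamini-Hochberg over the 520 features, 0.049 before adjustment). Of the 11 tested members 0 passed an adjusted p of 0.05, as did 0 of all 520 features (0%), and DESeq2 also called 0. At an unadjusted p under 0.05 there was 1 member, miR-541, beside 5 of 520 features (0.962%). Groups that did not overlap, with old lower, were found for 1 of 11 members, again miR-541, beside 2.31% of all features and 2.87% of miRNAs. Fitted changes were negative for 10 of 11 members, all but miR-134, beside 67% of the 209 miRNAs and 54.8% of all features, with medians of −0.60, −0.15 and −0.04. In CPM young replicate 1 was the highest of all 9 libraries for 9 of the 11 members and for 79 of 209 miRNAs (37.8%). Per miRNA read it was the highest for 2 of 11 members and 41 of 209 miRNAs (19.6%). Young replicate 3 was then the highest for 5 members and 24 of 209 miRNAs (11.5%). In the fit without young replicate 1, 7 of 11 changes were negative and the members' median was −0.34, beside −0.04 for all features. Leaving out old replicate 1 instead gave a median of −1.17, beside −0.06 for all features, with 10 of 11 changes negative. In that fit 2 members, miR-127 and miR-299a but not miR-541, had an unadjusted edgeR p under 0.05, beside 10 of 538 features. Leaving out young replicate 2 gave a median of −0.94, beside 0.01 for all features. In young replicate 1 miR-144, miR-451a, miR-142a and miR-223 were highest too, but not miR-486a, miR-486b, miR-150 or miR-155, and the part of these cell types in the changes was not tested.

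Per 10000 miRNA reads other members separated young from old. miR-127 held 3.73, 4.38 and 5.31 in young and 3.68, 3.47 and 2.02 in old libraries, without overlap. miR-411 fell between 0.535 and 0.761 in young and between 0.252 and 0.517 in old libraries, and miR-299a between 0.428 and 0.638 in young and between 0.177 and 0.420 in old libraries. These 3 of 11 members compare with 3.35% of the 209 miRNAs whose old libraries all lay below the young on this scale. Their edges were too close to tell apart, however. The lowest young and highest old values were 3.73 and 3.68 for miR-127, 0.535 and 0.517 for miR-411 and 0.428 and 0.420 for miR-299a. miR-541 overlapped here, with 2.61, 3.43 and 3.70 in young and 1.31, 2.91 and 1.41 in old libraries. No tested member thus separated the old from the young libraries on both scales.

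Curcumin-treated mice were set against old mice of the same age to ask about the treatment. Fitted levels after curcumin were lower for 4 of 11 members and higher for the other 7, beside 23% of the miRNAs and 43.5% of all features lower. The largest fitted changes among the members were 0.75 (SE 0.51) for miR-411, from 1.10 ± 0.533 to 1.85 ± 0.346 CPM, and −0.52 (SE 0.44) for miR-541, from 4.64 ± 0.536 to 3.25 ± 1.26 CPM (SD, n = 3). Their edgeR adjusted p was 0.917 each. Of the 11 members 0 passed, as did 0 of 520 features (0%), and DESeq2 called 0. At an unadjusted p under 0.05 there were 0 members, beside 21 of 520 features (4.04%). The groups overlapped for all 11 members, where 9.57% of miRNAs and 6.15% of all features were higher, and 3.83% and 6.73% lower, after curcumin without overlap. The members' median was 0.23, beside 0.25 for all tested miRNAs. Single libraries decided it: it was 0.97 with 1 of 11 members negative without old replicate 1, −0.07 with 6 negative without old replicate 3, −0.02 with 6 negative without curcumin replicate 1, 0.06 with 5 negative without old replicate 2 and 0.42 with 3 negative without curcumin replicate 2.

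Against miRNA reads, miR-541 was the 1 member of 11 whose curcumin libraries all lay below the old ones, at 1.18, 0.439 and 0.993 per 10000 after 1.31, 2.91 and 1.41. On this scale 14.8% of the 209 miRNAs did so. The edge of miR-541, 66 reads in curcumin replicate 1 against 70 in old replicate 1, was too close to tell apart, and in CPM these groups overlapped. The share of miRNAs in clean reads was 2.30% ± 1.05 in old libraries and 3.65% ± 0.519 after curcumin (SD, n = 3), with overlap, and its part in this was not tested.

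The comparison of curcumin-treated with young mice sets the treated aged atrium beside the young one, and shares its libraries with the 2 comparisons above. miR-541 had the lowest p of the members, with 3.25 ± 1.26 CPM against 9.11 ± 2.47 CPM (SD, n = 3), a log2 change of −1.49 (SE 0.44). Its p in the edgeR test was 0.00706 and its adjusted p over 520 features 0.867. DESeq2 gave miR-541 an adjusted p of 0.0693. miR-299a followed with a log2 change of −1.16 (SE 0.61, edgeR adjusted p = 0.942), from 1.54 ± 0.695 CPM in young to 0.693 ± 0.0891 CPM after curcumin. Of the 11 members 0 passed, as did 0 of 520 features (0%) by edgeR, and DESeq2 called 1 of 520 (0.192%), which was no member. At an unadjusted p under 0.05 there was 1 member, beside 19 of 520 features (3.65%).

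miR-541 and miR-299a were also the 2 of 11 members whose curcumin libraries all lay below the young ones in CPM, beside 5.58% of all features and 3.83% of miRNAs. Per 10000 miRNA reads the same 2 were lower without overlap, beside 10% of miRNAs. In CPM the edge of miR-299a, 0.829 in young replicate 2 against 0.757 in curcumin replicate 2, was too close to tell apart. Fitted changes were negative for 10 of 11 members, beside 43.5% of miRNAs and 50.6% of all features. Those of the other members lay between −0.25 for miR-379 and 0.22 for miR-134, except miR-337 at −1.03 (SE 0.87). The members' median was −0.22, beside 0.07 for miRNAs and −0.01 for all features, and it lay between −0.50 without curcumin replicate 1 and 0.16 without young replicate 1. In the fit without the 3 libraries numbered 1, chosen after the data were seen, miR-541 passed the test with a log2 change of −1.44 (SE 0.47, edgeR adjusted p = 0.0455). That fit, with 2 libraries a group, called 67 of 519 features (12.9%) and 1 of 10 tested members.

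**Figure D4:**
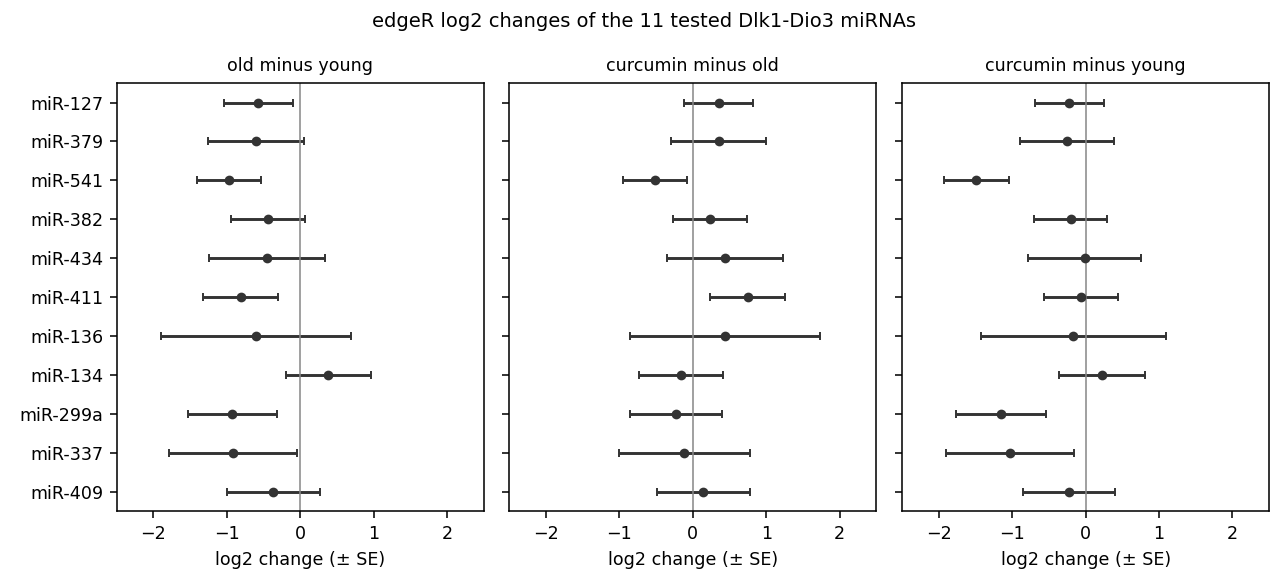
Log2 changes of the 11 tested precursors in the 3 comparisons, as points with bars of 1 SE from the edgeR fit. In old minus young 10 of 11 points lie below 0, in curcumin minus old 4 do, and miR-541 lies below 0 in each, at −0.97, −0.52 and −1.49.

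The make-up of the cluster reads was looked at after the values of miR-541 were seen. miR-541 made up 16.1%, 24.8% and 21.6% of the cluster reads in young, 10.1%, 22.8% and 19.4% in old and 8.78%, 6.74% and 11.7% in curcumin libraries. Every young library lay above every curcumin library, and old replicate 1 lay among the latter. Other shares that set young apart from curcumin libraries were those of miR-299a, 3.08% to 3.71% in young and 1.33% to 2.85% after curcumin, and of the precursors opposite Rtl1 given above, which were higher after curcumin. Old and curcumin libraries did not overlap in the share of miR-127, 27.2% to 28.4% in old and 29.0% to 33.9% after curcumin. Nor did they in that of miR-411, 3.47% to 4.04% in old and 4.21% to 8.01% after curcumin. The edges, 28.4% against 29.0% for miR-127 and 4.04% against 4.21% for miR-411, were too close to tell apart. The same holds for miR-299a, at 3.08% in young replicate 1 against 2.85% in curcumin replicate 2. These shares were picked from those of all 11 tested members after the values were seen, and no rate for other features is set beside them. The share of miR-379, 11.7% to 23.8% over all libraries, overlapped between groups. Reads of miR-541 per read of miR-127, a ratio that no scaling of libraries changes, were 0.700, 0.783 and 0.698 in young, 0.355, 0.838 and 0.700 in old and 0.303, 0.222 and 0.345 in curcumin libraries. The 3 curcumin libraries lay below the 6 others, the nearest of which was old replicate 1. At this edge 50 and 145 reads in curcumin replicate 3 stood against 70 and 197 in old replicate 1, too close to tell apart. Between old and young mice this ratio overlapped. Per read of miR-379 the values were 0.752, 2.12 and 1.30 in young, 0.519, 1.55 and 0.982 in old and 0.369, 0.364 and 0.676 in curcumin libraries. There old and curcumin libraries overlapped, as did old and young. Such a ratio can show unequal change of a pair, not which of them changed.

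**Figure D5:**
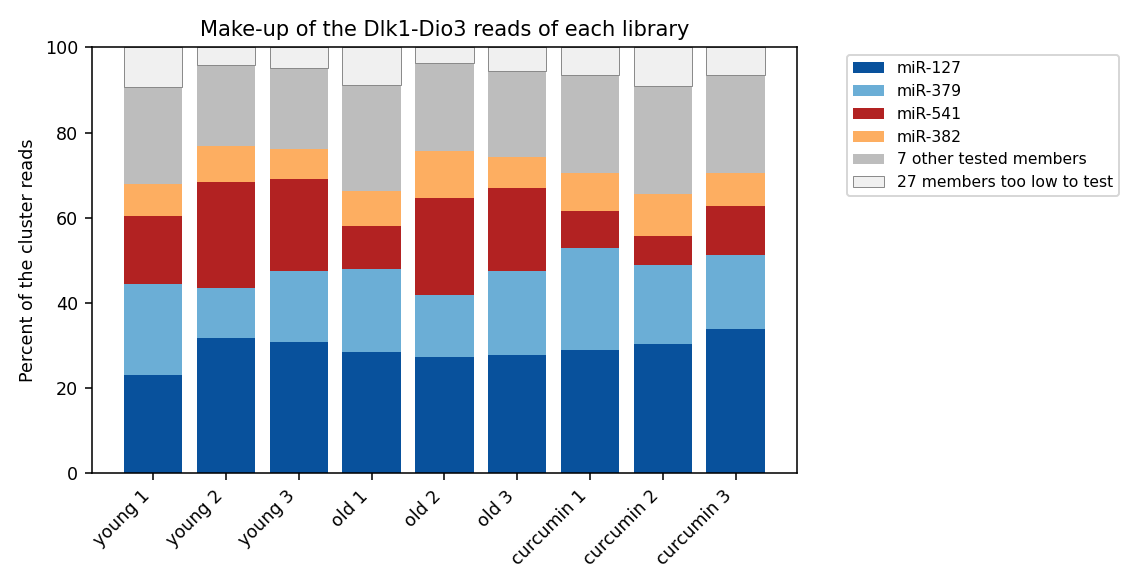
Percent of the cluster reads of each library held by miR-127, miR-379, miR-541 and miR-382, by the 7 other tested members and by the 27 members too low to test. The red part, miR-541, takes 16.1% to 24.8% in young and 6.74% to 11.7% in curcumin libraries.

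Among the 27 members too low to test, miR-377, miR-433, miR-543 and miR-665 had no read in any library, which allows up to 0.0203 RPM over all clean reads. miR-376b was the most read of the others, with 66 reads in 7 libraries and at most 25 in 1, ahead of miR-381 with 43 reads in 7 and miR-376c with 35 in 5. miR-376c had 25 of its 35 reads in young replicate 1, as miR-329 had 15 of 23 and miR-494 14 of 27. The remaining 20 had between 2 and 27 reads in all. miR-410 and miR-495, both studied for driving heart muscle cells to divide, had 2 and 4 reads. Of the 38 members 28, 14 and 20 were seen in young, 27, 14 and 17 in old and 24, 26 and 21 in curcumin libraries, and young and old replicate 2, with 14 each, also had the fewest miRNA reads. A member with 0 reads in 1 library may reach between 0.152 and 0.233 RPM there.

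Other precursors of the same region added little. Of 22 further precursors 13 had reads, 54 in all, and only miR-679 was seen in 5 libraries, with 2, 1 and 4 reads in young, 2 in old replicate 1 and 6 in curcumin replicate 2. The 9 neuronal precursors with reads, of 13 named, summed to between 2.03 and 5.06 CPM in young, 1.01 and 5.20 in old and 2.66 and 5.61 in curcumin libraries, and miR-153 and the miR-124a names were at 0. Under the names miR-124-1, miR-124-2 and miR-124-3 each precursor had 0.33 reads in 1 library. Most of the 452 neuronal reads were those of miR-9-1, miR-9-2 and miR-9-3, at 138.67, 138.67 and 145.67. The others, miR-137, miR-129-1 and miR-129-2, had 10, 11 and 7 reads. Leukocyte precursors summed to 53.0 to 350 CPM in young, 58.4 to 101 in old and 108 to 126 in curcumin libraries, and erythroid precursors to 54.9 to 281, 43.9 to 58.4 and 25.4 to 58.1 CPM. Of the leukocyte precursors, miR-142a and miR-223 were higher in every curcumin than in every old library, while miR-150 and miR-155 overlapped. Fibroblast precursors summed to 161 to 353, 121 to 360 and 271 to 342 CPM. The part of these cell types in the members' levels was not tested.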

How the data were processed

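Annotation tables of 9 PANDORA-seq libraries were used, 3 for each group of the labels. The deposited values are expected counts of reads per annotation, since reads that matched several annotations had been divided among them, as fractions in the tables show, and the authors had not normalized them. Per the submitters' processing notes, cutadapt 2.5 and the build mm10 were used. Not given in the sources used are the annotation tool, its strand setting and any use of molecular identifiers. The tables held 996 features (miRNA precursors, parts of tRNAs, rRNAs and others), with 83.7% to 87.3% of clean reads, and filterByExpr kept 520.

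Counts rounded to whole numbers went into 1 robust quasi-likelihood fit of edgeR 4.0.16 (R 4.3.3) with TMM scaling and group as the only term, and p-values were adjusted by Benjamini-Hochberg over all 520 features at 0.05. CPM use unrounded reads. Members tested or seen in all libraries are named with each value, and sequences are shown for tested members. The members, lists and rules were chosen with earlier results of these data known. Alternatives were DESeq2 1.42.0, RLE or clean-read scaling, other filters, miRNAs alone, 2 groups only, genome-matched reads, a replicate block and leaving libraries out.

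The replicate numbers pair the libraries only by the data: deviations from group means correlated 0.806, 0.624 and 0.271 within numbers 1, 2 and 3 between young and old, 0.330, 0.193 and 0.277 between young and curcumin, and 0.274, −0.0728 and 0.368 between old and curcumin, over the 520 tested features. The last pair of groups thus missed the rule of every correlation over 0.1. Some libraries with different numbers correlated more. Young replicate 3 correlated 0.543 with old replicate 2, young replicate 2 correlated 0.224 with curcumin replicate 3, and old replicate 3 correlated 0.490 with curcumin replicate 2. The numbers 2 and 3 are thus not clearly paired by these values.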

Additional observations from a re-analysis of the deposited data

How the results depend on the processing

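Counting error limits members under about 20 reads a library, and 3 libraries a group limit every change. Member calls stayed at 0 in each comparison under the alternatives run, leaving out single libraries included (0 to 0), except that 1 member, miR-541, was called in curcumin against young mice without the 3 libraries numbered 1 (−1.44). This setting and the totals without miR-541 were chosen after the data were seen. Without the libraries numbered 1, edgeR called 0 of 519 features in old against young and 67 in curcumin against young mice. In curcumin against old mice that fit called 73 of 519 features, with 0 of the 10 members tested there. The replicate block changed no call, with 0 members in each comparison and −0.92, −0.59 and −1.51 for miR-541. Its changes stayed negative throughout, from −1.14 to −0.80, −0.85 to −0.25 and −1.76 to −1.22 (edgeR or DESeq2 adjusted p from 0.938 to 1, 0.346 to 0.996 and 0.0455 to 1 in turn). Leaving out single libraries moved the RPM differences from −28.8 to −0.166 (old minus young, the latter without young replicate 1), from 3.38 to 17.0 (curcumin minus old) and from −20.6 to 8.01 (curcumin minus young, whose sign turned without young replicate 1), and those per 10000 miRNA reads from −5.72 to −2.89, −3.49 to −0.0447 and −8.24 to −4.80. Clean-read scaling moved the median of all features from 0.08 to 0.31 in curcumin against old and from −0.01 to 0.19 in curcumin against young mice. The cause of the sign changes below was not tested.

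Leaving out single libraries in old against young mice reversed miR-136 (−1.75 to 0.76), miR-379 (−1.23 to 0.13) and miR-434 (−1.58 to 0.75), each without young replicate 1. In curcumin against old mice it reversed miR-134 (−0.62 to 0.23), miR-299a (−0.56 to 0.71), miR-337 (−0.63 to 0.23), miR-136 (−0.64 to 1.65), miR-409 (−0.14 to 0.97), miR-382 (−0.072 to 0.78) and miR-379 (−0.018 to 1.04). In curcumin against young mice it reversed miR-136 (−1.23 to 1.12), miR-379 (−0.61 to 0.43), miR-382 (−0.41 to 0.16), miR-411 (−0.22 to 0.35), miR-434 (−0.30 to 1.14), miR-409 (−0.50 to 0.068) and miR-134 (−0.23 to 0.58). Other reversals in curcumin against old mice were miR-134 at 0.019 and miR-337 at 0.16 with clean-read scaling, miR-382 at −0.020 and miR-409 at −0.049 with miRNAs fitted alone, and miR-134 at 0.021, miR-299a at 0.74 and miR-337 at 0.30 without the libraries numbered 1. In curcumin against young mice they were miR-411 at 0.051 with clean-read scaling, miR-411 at 0.0058 and miR-434 at 0.054 with only these groups, miR-136 at 0.27, miR-411 at 0.030 and miR-434 at 0.42 with the replicate block, and miR-379 at 0.12, miR-411 at 0.38 and miR-434 at 1.02 without the libraries numbered 1.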

Other observations

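Imprinted miRNAs outside the region were set beside the cluster, 5 in all. miR-298, which lies with miR-296 in the imprinted Gnas region, had 11, 11 and 8 reads in young, 0, 0 and 1 in old and 3, 3 and 6 in curcumin libraries. Its young libraries, at 0.531, 1.01 and 0.811 CPM, lay above all others, and the curcumin libraries, at 0.177, 0.168 and 0.487 CPM, lay above the old, the highest of which had 0.0718 CPM. The 0 reads of old replicates 1 and 2 allow up to 0.214 and 0.238 CPM, however, more than the values of curcumin replicates 1 and 2, so this gap was within counting error. The gap between young and curcumin libraries was narrow too, with 11 reads in young replicate 1 against 6 in curcumin replicate 3. The filter on low counts removed miR-298, so no test was run. It was singled out from the 5 after its values were seen, and no share of other features is set beside it. miR-335, in the imprinted gene Mest, had 973, 107 and 59 reads in young, 360, 49 and 186 in old and 434, 292 and 172 in curcumin libraries, and the groups overlapped. miR-296, miR-483 and miR-675 had 8, 13 and 19 reads in all.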
